A study of Homo sapiens with 6 samples.

Results

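NRF2, encoded by NFE2L2, its repressor KEAP1 and 7 genes of the antioxidant programme were examined in RNA sequencing libraries of MDA-MB-231 cells, an established line of human triple-negative breast cancer. The 7 were HMOX1, NQO1, GCLC, GCLM, TXNRD1, SRXN1 and PRDX1. These 9 genes were chosen by symbol, and each was matched to 1 of the 28979 Ensembl gene IDs in the count files. Read counts came from 6 libraries, 3 labelled Ang and 3 labelled Con. According to the series design, exosomes of hypertrophic or of normal cardiomyocytes were given to the breast cancer cells in a search for microRNA targets. The labels explain neither Ang nor Con, give no dose or time, and do not tell whether replicates were cultured apart. The p-values therefore cover the spread between libraries only, and that spread may be technical.

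NRF2 is a transcription factor that KEAP1, an adaptor of the CUL3 ubiquitin ligase, holds at a low level in unstressed cells by marking it for destruction. Oxidants and electrophiles modify cysteines of KEAP1, after which NRF2 accumulates, pairs with a small MAF protein and binds antioxidant response elements near genes for glutathione synthesis, thioredoxin reduction, quinone detoxification and haem breakdown. Because KEAP1 acts on the NRF2 protein, the messenger RNA of NFE2L2 need not change when the pathway does.

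The core of the antioxidant response element, TGACNNNGC, was searched on both strands of the RefSeq promoter windows on GRCh38.p14, which run from 250 bases before to 50 after a gene's start. Of the 9 genes, 7 had a window, and HMOX1 and PRDX1 were not in the table. The motif was in 4 of their 10 windows, belonging to GCLM, TXNRD1 and KEAP1, and in 13.3% of all 35116 windows. No match was found in the windows of NFE2L2, GCLC, NQO1 and SRXN1, or in a further window of KEAP1. Bases outside the windows were not searched. The matches are printed with 10 bases on each side, on the strand of the gene, to show the letters around them. Capitals mark the match, which reads GCNNNGTCA where the motif lies on the other strand. The GCLM match lies at chr1:93909446-93909474 on the minus strand. Those of TXNRD1 lie on the plus strand, at chr12:104215670-104215698 and chr12:104215761-104215789 for the first start and chr12:104286920-104286948 for the second. Those of KEAP1 lie at chr19:10502807-10502835 and chr19:10502784-10502812 on the minus strand. A match is a description of letters and not evidence of binding.
GCLM: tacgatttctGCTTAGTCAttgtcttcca
TXNRD1, first start, match 1: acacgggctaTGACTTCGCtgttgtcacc
TXNRD1, first start, match 2: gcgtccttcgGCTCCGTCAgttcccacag
TXNRD1, second start: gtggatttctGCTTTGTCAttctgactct
KEAP1, match 1: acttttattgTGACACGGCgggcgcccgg
KEAP1, match 2: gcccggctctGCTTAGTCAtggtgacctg

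Total counts were 3482629 to 3961442 in the Ang libraries and 3369212 to 5437190 in the Con libraries. Of 10 mesenchymal markers of the line, all 10 were tested and none was called, with a summed level of 3465 to 3713 CPM (counts scaled to a common library size) in Ang and 2746 to 3660 CPM in Con. Of 10 luminal breast markers, 6 were tested and none was called. The 10 together had 1270 to 1397 CPM in Ang and 1214 to 1356 CPM in Con. ESR1, PGR, FOXA1 and CDH1 did not pass the filter, and the hormone receptor genes ESR1 and PGR were near 0 in every library. The keratin gene KRT8 averaged 987 CPM in Ang and 955 CPM in Con, KRT18 185 and 160 CPM, and KRT19 117 and 99.9 CPM. XBP1 averaged 39.0 CPM in Ang and 36.7 CPM in Con, EPCAM 9.76 and 9.83 CPM, and GATA3 3.14 and 4.69 CPM. The cardiomyocyte, fibroblast, leukocyte and endothelial lists had 2, 2, 0 and 2 tested members, none of them called. Of the cardiomyocyte markers, TTN averaged 229 CPM in Ang and 258 CPM in Con, with 15.5% of its exon bases under exons on the other strand. NPPA, the other tested marker, averaged 8.31 CPM in Ang and 10.7 CPM in Con. TNNI3, MYH6, MYL2, NPPB, RYR2 and PLN did not pass the filter, with means of at most 1.01 CPM in either group. TNNT2, MYH7, ACTC1 and MYL7 were not among the counted genes. The strand to which reads were assigned in these files is in doubt. In 250 pairs, a non-coding gene lying under a coding gene on the other strand had a median of 32.5 times its counts per base. The median was 32.9 to 35.4 in the Ang libraries, and 39.3, 23.2 and 41.1 in Con replicates 1 to 3, so that Con replicate 2 had the lowest ratio and stood apart from the other libraries. How well a count tracks the RNA of the gene it is listed under is for this reason uncertain.

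None of the 9 genes was called different in Ang. Of the 9 genes, 8 passed the low-count filter and SRXN1 did not. By edgeR's quasi-likelihood test, 0 of the 8 were called at an adjusted p under 0.05, against 0% of all 14547 tested genes. At an unadjusted p under 0.05 there were also 0 of the 8, against 3.4% of tested genes by edgeR, 2.83% by DESeq2 and 3% by limma-voom. All 8 had overlapping groups, while 8.16% of tested genes had groups that did not overlap. With the strand ratio of each library as a term in the fit, 0 of the 8 were called, against 0.0275% of tested genes, and 0 had an unadjusted p under 0.05, against 6.48%. Without Con replicate 2 the groups of GCLM (lower in Ang) and PRDX1 (higher in Ang) did not overlap, against 27.3% of tested genes in that setting, and 0 of the 8 were called, against 0.269% of 14867 genes. Log2 fold changes, given as Ang minus Con, were positive for 3 genes and negative for 5, with a median of -0.04, beside 49.2% positive values and a median of -0.01 over all tested genes. CPM were scaled by TMM, the trimmed mean of M values. In these bulk libraries fewer cells that express a gene and less RNA per cell cannot be told apart.

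**Figure D1:**
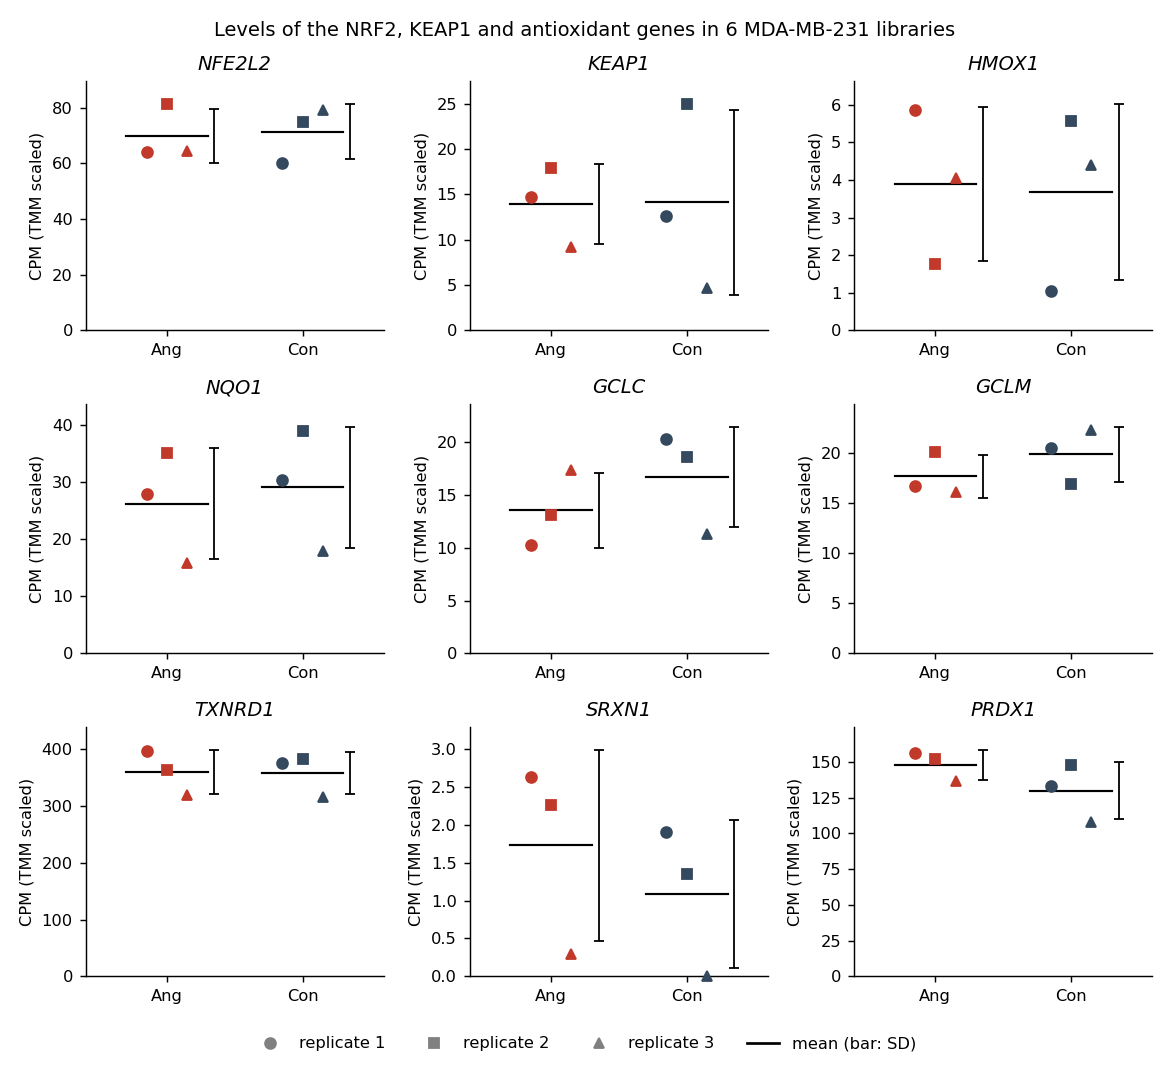
Level of each of the 9 genes in CPM (TMM scaled, linear axes from 0) in 3 Ang and 3 Con libraries. Symbols mark replicate numbers, horizontal lines the mean and bars the SD. In every panel the groups overlap, and KEAP1 spans 4.72 to 25.0 CPM within Con.

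NFE2L2 (ENSG00000116044), the gene of NRF2 itself, lies on chromosome 2 (177227595 to 177392697), where 17.6% of its exon bases also belong to ENSG00000213963 on the same strand, which had at most 9 counts in a library. NFE2L2 had 64.0, 81.2 and 64.4 CPM in Ang replicates 1 to 3, against 60.2, 74.9 and 79.3 CPM in Con replicates 1 to 3. The highest value was in Ang and the lowest in Con, and the groups overlapped across nearly their whole range. Means were 69.9 ± 9.82 CPM in Ang and 71.4 ± 9.99 CPM in Con (SD, n = 3 each). The log2 fold change was -0.03 ± 0.19 (SE), with an edgeR adjusted p of 0.999 and a 95% interval of 0.755 to 1.27 for the fold change.

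KEAP1 (ENSG00000079999), the repressor of NRF2, lies on chromosome 19 (10486120 to 10503741) with no exon base under an exon on the other strand. It had 14.7, 17.9 and 9.24 CPM in Ang, against 12.7, 25.0 and 4.72 CPM in Con. Con replicate 2 was the highest and Con replicate 3 the lowest of all 6 libraries, so the 3 Ang libraries lay inside the range of Con. The ratio of Con replicate 2 to Con replicate 3 was 5.30, from 148 and 15 counts, and counting error alone gave it an exact 95% range of 3.11 to 9.71. Among 9799 tested genes of at least 10 CPM, 3.38% were at least 2-fold higher in Con replicate 2 than in Con replicate 3. This cut is lower than the KEAP1 ratio, and NQO1 also passed it, at 2.18. Con replicates 2 and 3 also had the lowest and the highest strand ratio, at 23.2 and 41.1. The part of that difference in the KEAP1 values was not tested. Between groups the log2 fold change was -0.06 ± 0.34 (edgeR adjusted p 0.999), with an interval of 0.604 to 1.53 for the fold change. Without Con replicate 2 it was 0.64 ± 0.40 (edgeR adjusted p 0.589), and without Con replicate 3 it was -0.44. The sign also turned positive without Ang replicate 3, at 0.16, and in 4 fits of all 6 libraries given in the closing section, so the data give KEAP1 no stable direction.

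Per kilobase of exon, the ratio of KEAP1 to NFE2L2 was 0.365, 0.351 and 0.228 in Ang, against 0.335, 0.531 and 0.0946 in Con. The Con libraries again held both extremes, and means were 0.314 ± 0.0751 in Ang and 0.320 ± 0.219 in Con (SD, n = 3 each). The difference of -0.00571 was smaller than either SD, and it depended on single libraries, being 0.0998 without Con replicate 2 and -0.118 without Con replicate 3.

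Of the 9 genes, TXNRD1 and PRDX1 had the highest CPM. TXNRD1 (ENSG00000198431, chromosome 12, 104215779 to 104350305), which encodes cytosolic thioredoxin reductase, had 398, 364 and 319 CPM in Ang, against 377, 383 and 315 CPM in Con. The groups covered almost the same range, and each had its lowest value in replicate 3. Means were 360.4 ± 39.4 CPM in Ang and 358 ± 37.4 CPM in Con (SD, n = 3 each). The log2 fold change was 0.01 ± 0.17 (edgeR adjusted p 0.999), with an interval of 0.795 to 1.27 for the fold change, so a change of 2-fold in these counts lay outside it.

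PRDX1 (ENSG00000117450, chromosome 1, 45511036 to 45523047) encodes peroxiredoxin 1, a thiol peroxidase that reduces hydrogen peroxide. It had 156, 152 and 136 CPM in Ang, against 133, 148 and 108 CPM in Con. All Ang libraries were above Con replicates 1 and 3, and Con replicate 2 lay within the Ang range. Means were 148 ± 10.5 CPM in Ang and 129.7 ± 19.95 CPM in Con (SD, n = 3 each). The log2 fold change of 0.19 ± 0.18 (edgeR adjusted p 0.999) had an interval of 0.896 to 1.45 for the fold change. Without Con replicate 2 it was 0.29 ± 0.14, with an unadjusted p of 0.0409 and an edgeR adjusted p of 0.425, in a fit where 11% of tested genes had an unadjusted p under 0.05. Without Con replicate 3 it was 0.07 ± 0.17, with an unadjusted p of 0.681 and an edgeR adjusted p of 0.999.

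SRXN1 (ENSG00000271303, chromosome 20, 646615 to 653370), which encodes sulfiredoxin, the enzyme that restores over-oxidised peroxiredoxins, was barely counted. It had 9, 9 and 1 counts in Ang, against 9, 8 and 0 counts in Con, and the 0 in Con replicate 3 allows up to 0.944 CPM at 3 counts. The summed counts of 19 in Ang and 17 in Con gave a depth-scaled ratio of 1.43, for which counting error alone gave an exact 95% range of 0.702 to 2.92. Of its exon bases, 85.0% also belong to AL121758.1 (ENSG00000270299), an annotated coding gene on the same strand that had 2 counts in Ang replicate 3 and 0 in each other library. How the authors' counter treated reads shared by such genes is not given in the sources used here, so the level of SRXN1 is uncertain.

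The subunits of glutamate-cysteine ligase, the first enzyme of glutathione synthesis, both had slightly lower means in Ang without passing the test. GCLC (ENSG00000001084, chromosome 6, 53497341 to 53616970), the catalytic subunit, had 10.3, 13.1 and 17.3 CPM in Ang, against 20.3, 18.6 and 11.3 CPM in Con. Con replicates 1 and 2 were above every Ang library, while Con replicate 3 was below 2 of the 3. Its log2 fold change of -0.32 ± 0.32 (edgeR adjusted p 0.999) had an interval of 0.517 to 1.25 for the fold change, and ran from -0.53 without Ang replicate 3 to -0.16 without Ang replicate 1. GCLM (ENSG00000023909, chromosome 1, 93885205 to 93909456), the modifier subunit, had 16.7, 20.2 and 16.2 CPM in Ang, against 20.5, 16.9 and 22.3 CPM in Con. Con replicates 1 and 3 were above every Ang library, and Con replicate 2 was within the Ang range. Its log2 fold change was -0.16 ± 0.29 (edgeR adjusted p 0.999), with an interval of 0.599 to 1.34 for the fold change.

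Per kilobase of exon, GCLM was counted more than GCLC in every library. The ratio was 2.60, 2.45 and 1.49 in Ang, against 1.61, 1.45 and 3.15 in Con, with means of 2.18 ± 0.603 in Ang and 2.07 ± 0.936 in Con (SD, n = 3 each). Each group spanned both low and high ratios. The difference of 0.111 was smaller than either SD, and with 1 library left out it ran from -0.199 without Con replicate 2 to 0.649 without Con replicate 3.

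NQO1 (ENSG00000181019, chromosome 16, 69706996 to 69726951), the gene of the quinone reductase most often used as a readout of NRF2, had 27.9, 35.05 and 15.9 CPM in Ang, against 30.4, 39.0 and 17.9 CPM in Con. Both groups had their highest value in replicate 2 and their lowest in replicate 3, and the groups overlapped. Means were 26.3 ± 9.68 CPM in Ang and 29.1 ± 10.6 CPM in Con (SD, n = 3 each), a log2 fold change of -0.16 ± 0.26 (edgeR adjusted p 0.999) with an interval of 0.626 to 1.28 for the fold change. Without Con replicate 2 the log2 fold change was 0.11 ± 0.28 (edgeR adjusted p 0.941).

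HMOX1 (ENSG00000100292, chromosome 22, 35380361 to 35394214) encodes haem oxygenase 1, an inducible enzyme that breaks down haem. It had 5.87, 1.76 and 4.04 CPM in Ang, against 1.06, 5.58 and 4.40 CPM in Con, from 5 to 33 counts per library. Each group held low and high libraries. Its log2 fold change was 0.07 ± 0.66 (edgeR adjusted p 0.999), and the interval of 0.428 to 2.57 for the fold change was the only one of the 8 to reach 2-fold. The summed counts, 41 in Ang and 52 in Con, had a depth-scaled ratio of 1.01. Counting error alone gave that ratio an exact 95% range of 0.652 to 1.54. The part of the spread between libraries in the wider edgeR interval was not tested. For the other 7 of the 8 genes (87.5%) the interval with all 6 libraries lay within 2-fold in both directions, as it did for 64.2% of all tested genes. With 1 library left out this did not hold for every gene. In log2 units the interval of KEAP1 reached 1.44 without Con replicate 2, -1.15 without Con replicate 3 and -1.07 without Ang replicate 2. That of GCLC reached -1.28 without Ang replicate 3, -1.19 without Con replicate 3 and -1.02 without Ang replicate 2. The interval of NQO1 reached -1.05 without Ang replicate 2.

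**Figure D2:**
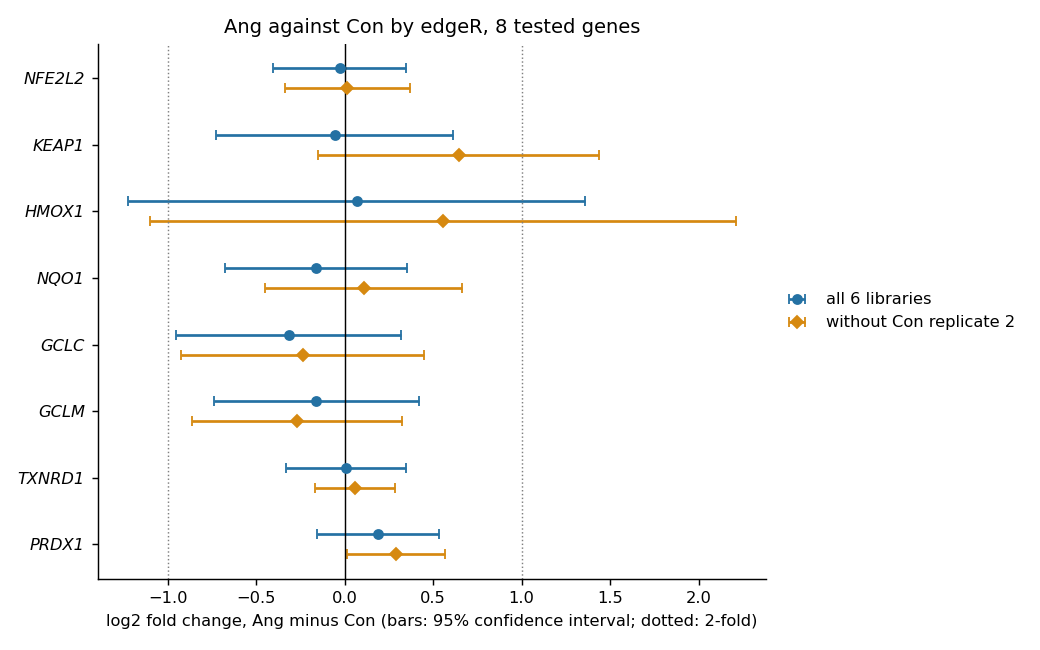
Log2 fold change, Ang minus Con, of the 8 tested genes by edgeR, with 95% confidence intervals as bars, for all 6 libraries (circles) and without Con replicate 2 (diamonds). Dotted lines mark 2-fold. With all libraries each interval crosses 0, and KEAP1 moves to 0.64 without Con replicate 2.

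Ordered by level per kilobase of exon over the 6 libraries, PRDX1 came first, with 97.4 ± 6.90 CPM per kb in Ang and 85.2 ± 13.1 CPM per kb in Con, followed by TXNRD1 with 53.7 ± 5.87 CPM per kb in Ang and 53.4 ± 5.57 CPM per kb in Con (SD, n = 3 each). Both stood apart from the genes next to them, and they were at the 94.4th and 91.1st percentile of 14351 tested genes. NFE2L2 followed with a mean of 11.8 CPM per kb over all libraries, then NQO1 with 8.51, KEAP1 with 3.73 and GCLM with 3.47 CPM per kb. The library ranges of adjacent genes in this order overlapped. Those further apart did not all do so, as the lowest NFE2L2 value of 10.1 CPM per kb was above the highest of KEAP1 at 6.65 and of GCLM at 4.12, and the lowest NQO1 value of 4.88 was above the highest of GCLM. NFE2L2 was above NQO1, and NQO1 above KEAP1, in each of the 6 libraries. GCLM stood above GCLC, which had 1.75 CPM per kb, with no overlap. HMOX1, at 1.57 CPM per kb, overlapped both GCLC and SRXN1, at 0.522 CPM per kb, while the lowest GCLC value of 1.19 was above the highest of SRXN1 at 0.979. As reads of a gene may have been assigned to the other strand to a different degree for each gene, this order describes the counts.

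The genes on the other strand at these loci were counted as follows, and reads assigned to the wrong strand cannot be told apart here from RNA of these genes. ENSG00000261602, an antisense gene named AC092115.2 in GENCODE (chromosome 16, 69709874 to 69710583), has 100% of its exon bases under exons of NQO1. It had 199.5, 192.5 and 223 CPM per kb in Ang, against 204, 169 and 230.8 CPM per kb in Con. These levels were 17.9 to 45.7 times that of NQO1 in the Ang libraries and 14.1 to 41.9 times in the Con libraries. In 379 bases PRDX1 overlaps MMACHC, a gene of vitamin B12 metabolism on the other strand, which takes in 24.9% of the exon bases of PRDX1. MMACHC had 1254, 1127 and 1263 CPM in Ang, against 1341, 917 and 1289.55 CPM in Con, several times the level of PRDX1 in each library. ENSG00000222043, an antisense gene that shares 190 exon bases with NFE2L2, had 63.4, 71.9 and 76.0 CPM in Ang, against 87.0, 58.5 and 65.7 CPM in Con. AGPS, a coding gene that shares 54 exon bases with NFE2L2, had 37.9, 44.4 and 40.7 CPM in Ang, against 43.9, 40.6 and 39.9 CPM in Con. Per kilobase, AGPS was below NFE2L2 in every library, at 0.336 to 0.487 times its level. None of these genes on the other strand was called by edgeR, with log2 fold changes of 0.03 ± 0.18 for ENSG00000261602, 0.04 ± 0.18 for MMACHC, 0.00 ± 0.19 for ENSG00000222043 and -0.02 ± 0.22 for AGPS.

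GCLC-AS1, the antisense gene that shares 7 exon bases with GCLC, had 47.8, 54.2 and 49.4 CPM in Ang, against 74.1, 42.6 and 83.7 CPM in Con. The Ang libraries lay close together, and Con replicates 1 and 3 were above them and Con replicate 2 below. The log2 fold change was -0.39 ± 0.20, with an unadjusted p of 0.0550 and an edgeR adjusted p of 0.999. Without Con replicate 2 it was -0.64 (edgeR adjusted p 0.0940). For GCLC-AS1, MMACHC and both antisense genes given by ID Con replicate 2 held the lowest of the 6 values. It held the highest for KEAP1, which has no gene on the other strand, and for NQO1. For NFE2L2, PRDX1, TXNRD1, HMOX1, SRXN1, GCLC and GCLM the highest value was in another library. The part of the lower strand ratio of Con replicate 2 in these values was not tested.

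**Figure D3:**
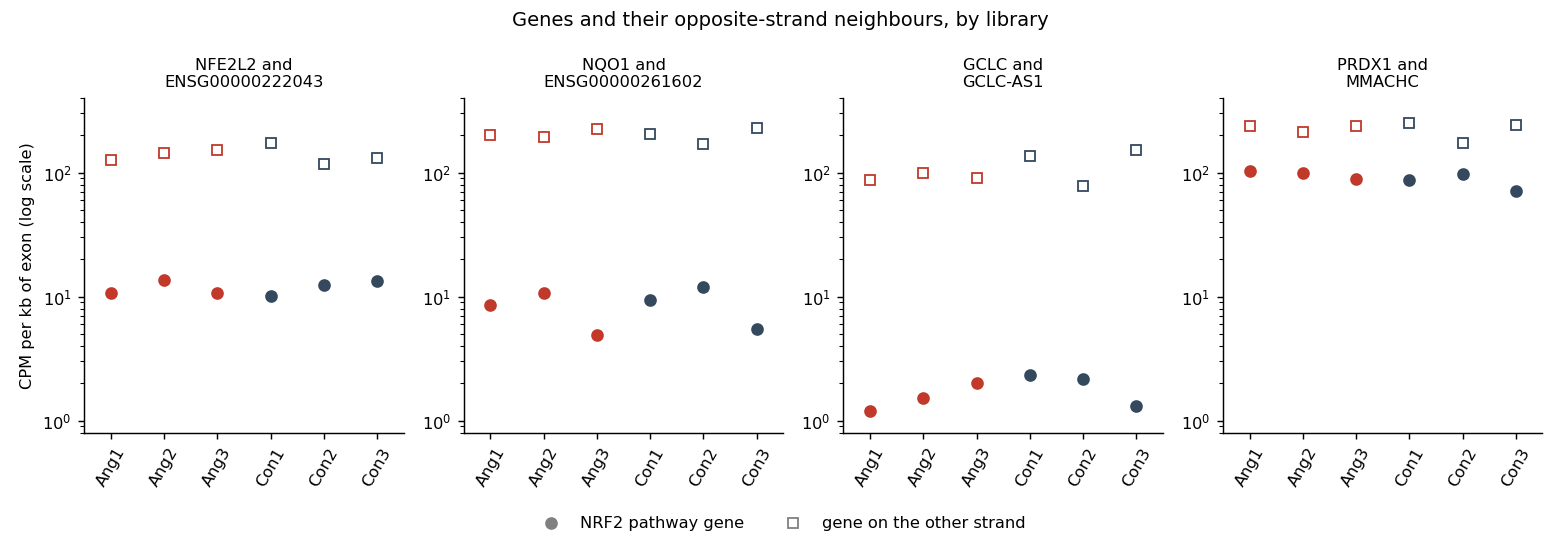
Level per kilobase of exon (CPM per kb, log scale) of 4 genes (filled circles) and of the genes on their other strand (open squares) in each library, Ang in red and Con in dark blue. AGPS, the other gene opposite NFE2L2, is not drawn. Each antisense gene or MMACHC is above its partner in every library, by 1.79 to 3.43 times for MMACHC over PRDX1 and by 36.2 to 117 times for GCLC-AS1 over GCLC.

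**Figure D4:**
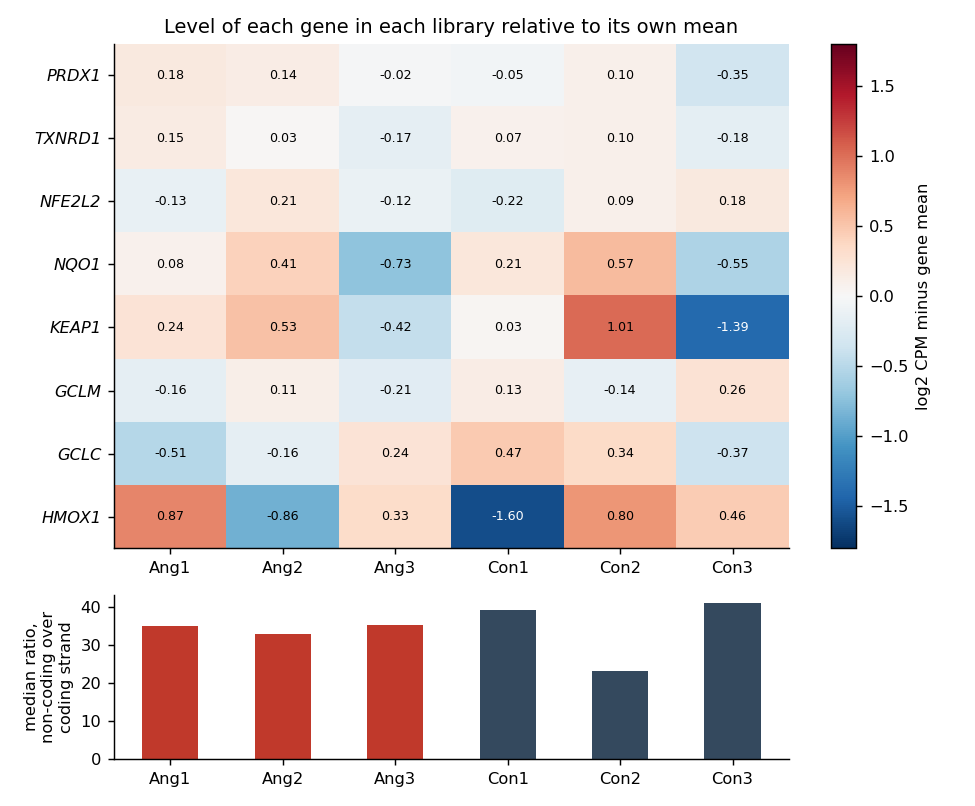
Top, log2 CPM of each of the 8 tested genes in each library minus the mean of that gene over the 6 libraries. Bottom, the median strand ratio (non-coding over coding gene, per base) of each library. KEAP1 runs from -1.39 in Con replicate 3 to 1.01 in Con replicate 2, the libraries with the highest and the lowest ratio.

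By root mean square difference of centred log2 CPM over the 6 libraries, the genes most like NFE2L2 among 6871 tested genes of at least 20 CPM were ADNP, ZNF638 and SNX13, at 0.0444, 0.0547 and 0.0553, where the median gene was at 0.271. ADNP had 54.9, 69.1 and 54.0 CPM in Ang, against 48.4, 65.9 and 64.5 CPM in Con. Those most like KEAP1 were PIP5K1A, RXRB and DCTN5, at 0.302, 0.313 and 0.319, with a median of 0.756 over 6872 genes. PIP5K1A had 35.5, 36.1 and 28.6 CPM in Ang, against 29.6, 45.0 and 16.4 CPM in Con, likewise with both extremes in Con. NQO1 stood 20th in likeness to KEAP1, PRDX1 591st, TXNRD1 1225th and NFE2L2 3312th. In likeness to NFE2L2, TXNRD1 stood 2141st, PRDX1 3155th and NQO1 6649th of 6871. These likenesses rest on 6 libraries that share the depth and strand differences given above.

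The wider pathway was examined through 7 lists of 117 genes, of which 112 were in the files and 101 were tested. By edgeR 0 were called in either direction, 48 had positive and 53 negative log2 fold changes, and the median was -0.01, the same to 2 decimals as over all tested genes. At an unadjusted p under 0.05 there was 1 higher gene, GPX4, and 1 lower gene, PGLS, against 3.4% of all tested genes. The groups did not overlap for 4 genes higher in Ang (GPX3, GSTO1, GSTK1 and CCS) and 3 lower (SYVN1, PGLS and IDH1), against 3.62% and 4.54% of all tested genes. Without Con replicate 2, in a fit that called 0.269% of 14867 genes, 1 of the listed genes was called, FTL.

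**Figure D5:**
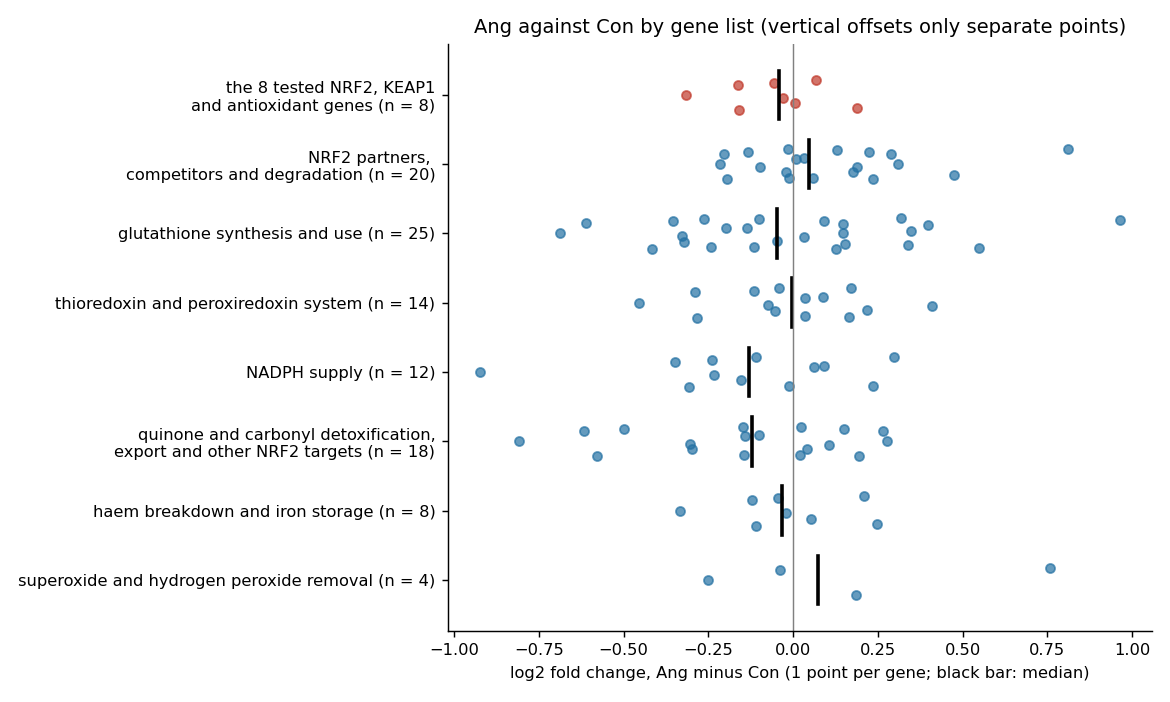
Log2 fold change, Ang minus Con, of each tested gene, 1 point per gene, for the 8 genes described first (red) and 7 lists of related genes (blue). Black bars mark medians, which run from -0.13 for NADPH supply to 0.07 for superoxide and hydrogen peroxide removal.

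Among partners, competitors and degradation factors of NRF2, 0 of 20 were called and 12 were positive, with a median of 0.05. SQSTM1, the autophagy receptor p62, which sequesters KEAP1, had 423, 495 and 482 CPM in Ang, against 365, 447 and 415 CPM in Con (log2 fold change 0.19 ± 0.17). Both groups shared part of their range. NFE2L1, a related factor known for control of proteasome genes, had 173, 145 and 177 CPM in Ang, against 139, 204 and 155 CPM in Con. DPP3, a peptidase that binds KEAP1, had a log2 fold change of 0.48 ± 0.29, and AMER1, a scaffold protein, 0.81 ± 0.66 from 4.84 ± 1.91 CPM in Ang and 2.79 ± 0.589 CPM in Con (SD, n = 3 each).

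Of the genes of glutathione synthesis and use, 0 of 25 tested were called, 12 were positive and the median was -0.05. GPX4, the peroxidase that reduces lipid hydroperoxides, had 81.9, 107 and 75.4 CPM in Ang, against 50.9, 80.6 and 69.2 CPM in Con. Con replicate 2 was above Ang replicate 3, and the log2 fold change of 0.40 ± 0.19 had an unadjusted p of 0.0361 and an edgeR adjusted p of 0.999. GSTO1, a glutathione transferase, had 59.6, 61.5 and 59.8 CPM in Ang, against 47.9, 58.3 and 34.6 CPM in Con, without overlap of the groups (0.35 ± 0.21). The most abundant of the list were GLO1, which detoxifies methylglyoxal, at 128 ± 16.7 CPM in Ang and 151 ± 14.2 CPM in Con, and GLRX2, a glutaredoxin, at 107 ± 18.9 CPM in Ang and 98.3 ± 29.4 CPM in Con (SD, n = 3 each).

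The thioredoxin and peroxiredoxin list had 0 of 14 tested genes called and 7 positive, with a median of -0.00. TXNIP, the inhibitor of thioredoxin, had 108, 107 and 115 CPM in Ang, against 115, 117 and 77.4 CPM in Con. The Ang libraries fell inside the range of Con. PRDX3, the mitochondrial peroxiredoxin, averaged 78.3 ± 9.33 CPM in Ang and 76.3 ± 9.60 CPM in Con (SD, n = 3 each). SESN2, a sestrin, and TXNL1, a thioredoxin-like protein of the proteasome, had log2 fold changes of -0.46 ± 0.47 and -0.29 ± 0.23.

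Genes of NADPH supply, on which the reductases depend, were 0 of 12 called, with 4 positive and a median of -0.13. PGLS, an enzyme of the pentose phosphate pathway, had 5.28, 6.56 and 3.76 CPM in Ang, against 7.81, 13.5 and 8.18 CPM in Con. The groups did not overlap, and the log2 fold change of -0.92 ± 0.44 had an unadjusted p of 0.0390 and an edgeR adjusted p of 0.999. The pentose phosphate enzyme genes TKT, at 248 ± 18.2 CPM in Ang and 233 ± 45.2 CPM in Con, and TALDO1, at 56.8 ± 4.21 CPM in Ang and 45.8 ± 12.4 CPM in Con, had positive values of 0.09 ± 0.17 and 0.30 ± 0.21. MTHFD1, a folate enzyme, had -0.23 ± 0.17.

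In the list of quinone and carbonyl detoxification, export and other NRF2 targets, 0 of 18 tested genes were called and 8 were positive, with a median of -0.12. AKR1B1, an aldose reductase, had 208, 204 and 214 CPM in Ang, against 190.3, 250.4 and 175 CPM in Con. The Ang values lay between those of the Con libraries. EPHX1, an epoxide hydrolase, averaged 98.0 ± 6.51 CPM in Ang and 95.2 ± 6.73 CPM in Con (SD, n = 3 each). PTGR1, a reductase of reactive alkenals, had -0.50 ± 0.28 and ABCC5, a membrane exporter, -0.81 ± 0.50. AKR1C1 and AKR1C2, closely similar genes often used as NRF2 readouts, had at most 11 counts in a library, did not pass the filter, and may share reads.

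Haem breakdown and iron storage genes were 0 of 8 called and 3 positive, with a median of -0.03. FTL, the ferritin light chain gene, had 360.3, 431 and 406 CPM in Ang, against 292, 457 and 259 CPM in Con, with Con replicate 2 the highest of all. Its log2 fold change was 0.25 ± 0.17 (edgeR adjusted p 0.999), and 0.53 without Con replicate 2, where it was higher in Ang (edgeR adjusted p 0.0148). FTH1, the ferritin heavy chain gene, had 534, 555 and 547 CPM in Ang, against 409, 575 and 430.3 CPM in Con (0.21 ± 0.17), with 62.4% of its exon bases under exons on the other strand. Ferritin genes have many processed copies in the genome with which reads may be shared. Of the genes that remove superoxide and hydrogen peroxide, 0 of 4 tested were called. SOD1, the cytosolic superoxide dismutase, averaged 77.7 ± 6.19 CPM in Ang and 79.7 ± 11.7 CPM in Con, and PARK7, a redox-sensitive protein, 35.9 ± 5.56 CPM in Ang and 42.6 ± 1.49 CPM in Con (SD, n = 3 each). CCS, the copper chaperone of that dismutase, had 5.28, 5.80 and 6.35 CPM in Ang, against 2.75, 4.56 and 2.83 CPM in Con, without overlap of the groups and with a log2 fold change of 0.76 ± 0.59.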

How the data were processed

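Per the labels' protocols, poly-T beads captured the RNA, random primers started the cDNA, and no step that marks the strand is named. The authors deposited raw read counts by Ensembl ID, a file for each of 6 libraries. HTSeq 0.9.1, DESeq 1.39.0 and GRCh38 are named per the submitters' processing notes. Aligner, annotation release and strand setting: not given in the sources used here.

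Symbols came from a table of gene names, which matched 28918 of 28979 IDs. Exon lengths, positions and overlaps came from GENCODE release 29 on GRCh38, which held 28192 of the IDs, with bedtools 2.31.1. The test was that of edgeR 4.0.16, run in R 4.3.3 (filterByExpr, TMM scaling, robust quasi-likelihood test, Benjamini-Hochberg adjustment over all 14547 tested genes, threshold 0.05). Intervals of fold changes are at 95% and rest on the spread between libraries. Ratios of single libraries and of summed counts have exact (Clopper-Pearson) intervals, which, like the limit of 3 counts for a 0, cover counting error only, as PCR reads are not independent molecules. The limit is 0.507 to 0.944 CPM.

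In strand pairs, 90% or more of the exon bases of the non-coding gene lay under 1 coding gene of 300 or more counts, and 0.5 was added to counts. A pseudocount of 0.5 CPM was used for likeness between genes. No libraries agreed within sampling noise (chi-square per gene 3.61 to 14.5 within groups).

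Named were the 9 genes, of each list the 2 most abundant and the 2 of smallest p, the 3 genes most like NFE2L2 and KEAP1, and genes on the other strand. AKR1C1, AKR1C2, the luminal markers, TTN and the other cardiomyocyte markers were named after their values were seen. The same holds for those of 7 listed genes without group overlap that the rule leaves out. Members, lists and tests were chosen with earlier results of these data known. Tried as alternatives were RLE scaling, no low-count filter, a replicate block, a filter of 1 CPM in 3 libraries, each library left out, DESeq2 1.42.0, limma-voom (limma 3.58.1) with and without library quality weights, and a strand ratio term. On simulated counts for these 14547 genes, 40.7% of 2-fold and 85% of 4-fold changes were called by edgeR, and 5.69% of calls were false. Changed genes were planted in the simulation, libraries were drawn independently, and none was set apart as Con replicate 2 was. The shares called may therefore differ for the real counts.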

Additional observations from a re-analysis of the deposited data

How the results depend on the processing

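None of the 8 tested genes was called under any of the 14 alternatives each, which were RLE scaling, no low-count filter, at least 1 CPM in 3 libraries, the replicate block, DESeq2, limma-voom with and without library quality weights, the strand ratio term and leaving out each library. The smallest adjusted p was 0.425, for PRDX1 without Con replicate 2, and log2 fold changes ran from -0.53 to 0.64. Of these 112 values, 94 kept their sign and 18 changed it. GCLC, GCLM and PRDX1 kept theirs in every alternative, with ranges of -0.53 to -0.16, -0.27 to -0.08 and 0.07 to 0.29. NFE2L2 changed to 0.0091 with library quality weights and ran from -0.15 to 0.0415 with 1 library left out. KEAP1 changed to 0.13 with the replicate block, 0.0366 with limma-voom, 0.30 with library quality weights and 0.23 with the strand ratio term, and ran from -0.44 to 0.64 with 1 library left out. With 1 library left out HMOX1 ran from -0.38 to 0.56, NQO1 from -0.43 to 0.11 and TXNRD1 from -0.0831 to 0.0861. The cause of these changes was not tested.

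Over all tested genes the count called was 0 in most settings, 1 with library quality weights, 4 with the strand ratio term, and 0 to 40 with 1 library left out (1 without Con replicate 1, 40 without Con replicate 2). Listed pathway genes called stayed at 0 except for 0 to 1 with 1 library left out, FTL without Con replicate 2. Genes of the 8 with groups that did not overlap numbered 0 to 2 with 1 library left out, where fewer libraries make overlap rarer. GCLM and PRDX1 were apart without Con replicate 2, against 27.3% of all tested genes in that setting. GCLM was apart without Ang replicate 2 (lower in Ang) and PRDX1 without Ang replicate 3 (higher in Ang), each against 15.9% of tested genes. GCLC was apart without Con replicate 3 (lower in Ang), against 18.4%. None was apart without Ang replicate 1, against 16%, or without Con replicate 1, against 15.4%. The replicate block gave 0 called genes. Same-numbered libraries had correlations of deviations of 0.034, 0.059 and 0.034. Pairs of an Ang and a Con library with unlike numbers had lower ones, from -0.062 to 0.024. All were near 0, and whether the numbers pair the libraries is not settled by them. SRXN1 could be fitted without the filter (0.61 ± 1.12) and with the CPM filter (0.60 ± 1.07), not called in either. Depth limits SRXN1, with at most 9 counts in a library.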
